A study of Homo sapiens with 6 samples.

Results

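The miR-548 family was described across 6 small RNA libraries of human melanoma cells. Its members were taken by name, as every entry of the deposited miRNA table that begins with hsa-miR-548, which gave 72 of the 1596 miRNAs listed. The sample labels give A2058 cells, an established human melanoma line, whereas the study's text names A375, another melanoma line. Which line was sequenced was not settled here. All cells were exposed for 24 h to RSL3, an inhibitor of the lipid peroxide-clearing enzyme GPX4 that triggers ferroptosis. The RSL3 group (3 libraries) received RSL3 alone, and the combined group (3 libraries) received RSL3 together with IFN-γ, a cytokine released by activated T cells. Both groups therefore carry RSL3, and no untreated library was analysed here, so the comparison gives the difference that goes with IFN-γ in RSL3-treated cells of 1 line. The study says in general terms that its experiments were repeated, but neither it nor the labels say whether the libraries of a group came from separate cultures, so p-values measure no more than how these libraries vary, and that variation may be technical.

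MicroRNAs are short RNAs cut from both arms (5p and 3p) of a hairpin transcript, and they guide Argonaute proteins to messenger RNAs through the seed, bases 2 to 8 from the 5′ end. The miR-548 family is a large primate family whose hairpins come from Made1, a short DNA transposon with inverted repeats that folds back on itself. Because copies of that element lie throughout the genome, many family members differ from each other by only a few bases, and their reads can be hard to assign. Most members have little established function, and for those described below no role is given beyond the hairpin that they come from and the seed that they carry.

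The mature sequences shown first are those of 3p entries with a matched sequence and at least 100 reads over the 6 libraries. They are credited to RefSeq on GRCh38.p14, with the seed in capitals. MiR-548e-3p and miR-548a-3p are absent because no sequence was matched to them. They are shown so that the shared core of the 3p arm, its offset start in miR-548p and the single-base differences can be seen.
miR-548o-3p: cCAAAACUgcaguuacuuuugc
miR-548ah-3p: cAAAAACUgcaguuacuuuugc
miR-548am-3p: cAAAAACUgcaguuacuuuugu
miR-548aq-3p: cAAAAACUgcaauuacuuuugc
miR-548j-3p: cAAAAACUgcauuacuuuugc
miR-548p: uAGCAAAAacugcaguuacuuu
miR-548bc: aAAAACUGugauuacuuuugc
miR-548f-3p: aAAAACUGuaauuacuuuu
miR-548ar-3p: uAAAACUGcaguuauuuuugc
miR-548u: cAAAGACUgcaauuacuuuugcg
miR-548b-3p: cAAGAACCucaguugcuuuugu

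Entries of the 5p arm are shown for contrast, since they carry other seeds. MiR-548k, miR-548b-5p and miR-548n are the most abundant 5p entries with a matched sequence. MiR-548j-5p, which is less abundant, is the other arm of miR-548j-3p.
miR-548k: aAAAGUACuugcggauuuugcu
miR-548b-5p: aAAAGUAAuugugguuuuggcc
miR-548j-5p: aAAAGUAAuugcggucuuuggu
miR-548n: cAAAAGUAauuguggauuuugu

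The arms differed in the short runs of bases that they hold. Of the 72 members, 25 were named 5p, 25 were named 3p and 22 had no arm in their name. By position in the RefSeq hairpin, 12 of the latter lay on the 5p side and 6 on the 3p side, which gave 37 5p and 31 3p entries, and 4 could not be placed. The same placement matched 1629 of 1631 arms that are given in miRNA names. A mature sequence was matched for 49 members. The letters AAACUG, read on the RNA strand only, occurred in 15 of 23 sequences of the 3p arm (65.2%) and in 0 of 26 of the 5p arm. AAAGUA occurred in 18 of 26 5p sequences (69.2%) and in 0 of 23 3p sequences. Of the 1376 other miRNAs with a sequence, 0.654% held AAACUG and 0.363% held AAAGUA. The run UUACUUUU, which lies further along the 3p arm, was present in 14 of 23 3p sequences and in 0.0727% of the other miRNAs.

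Within the 3p arm the differences between members were small, with positions counted from 1 at the 5′ end. From miR-548ah-3p, miR-548am-3p differs by C22U, miR-548aq-3p by G12A and miR-548o-3p by A2C. The last of these is the difference that gives miR-548o-3p a seed of its own. MiR-548p shares an unbroken run of 19 bases with miR-548ah-3p, which starts at base 4 of miR-548p and at base 1 of miR-548ah-3p. The sources used here do not state how a read matching several miRNAs was assigned, and each near-identical entry is therefore uncertain on its own.

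The hairpins were spread over the genome. On GRCh38 with the GENCODE 29 annotation, 71 of the 72 members matched 68 hairpin genes on 22 chromosomes. Of these hairpins, 37 lay inside a gene on the same strand (33 of them protein coding), 11 lay only opposite a gene and 20 lay between genes. There were 18 members with more than 1 hairpin, whose reads cannot be told apart by copy. MiR-548o-3p has 2 mature copies in RefSeq, at chr20:38516607-38516628 on the plus strand and at chr7:102405748-102405769 on the minus strand. The hairpin of the first lies in an intron of RALGAPB, and that of the second lies opposite an intron of PRKRIP1. MiR-548f-3p has 5 copies, 4 of them in introns of ERBB4, TMEM232, PCDH15 and DMD and 1 opposite an intron of CNTNAP2. MiR-548ah-3p (chr4:76575597-76575618) lies in an intron of SHROOM3, miR-548p (chr5:100816498-100816519) in an intron of ST8SIA4 and miR-548e-3p in an intron of SHOC2. MiR-548bc, the member with no GENCODE 29 hairpin, lies at chr17:39297457-39297477.

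The libraries held 4897890 to 6513382 miRNA reads in the RSL3 group and 4383940 to 5367150 in the combined group. Levels are given as CPM, each library's reads scaled to a common total with edgeR's TMM factors. These factors were 0.861, 0.913 and 0.877 for the RSL3 libraries and 0.944, 1.33 and 1.15 for the combined libraries. The 5 miRNAs listed for melanocytes and melanoma summed to 577 to 743 CPM in the RSL3 group and to 490 to 578 CPM in the combined group, with none at 0. The lists for other cell types also held no miRNA at 0 in all libraries. The blood cell list summed to 101 to 168 CPM and 84.1 to 328 CPM, and the epithelium list to 87.5 to 130 CPM and 81.5 to 102 CPM. The fibroblast and smooth muscle list summed to 383 to 1270 CPM and 328 to 551 CPM, and the liver and muscle list to 243 to 1360 CPM and 277 to 445 CPM. The ranges overlapped between groups in every list, at the edge in the melanocyte list, and their part in the results was not tested.

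As a whole the family was a small part of the miRNA pool and was lower in the combined group. Of all reads it took 0.109%, 0.0764% and 0.0924% with RSL3 alone and 0.0518%, 0.0339% and 0.0565% with the combined treatment. Every RSL3 library was above every combined library. The mean shares were 0.0927% ± 0.0164 and 0.0474% ± 0.0119 (SD, n = 3 each). On the TMM scale the summed levels were 1270, 837 and 1050 CPM in the RSL3 group and 549, 255 and 489 CPM in the combined group, a ratio of means of 2.44. Leaving out miR-548o-3p, the most abundant member, gave a ratio of 2.12, and counting entries with equal counts once gave 2.46. No test was made of these sums, because the members were chosen with earlier results known.

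The 3p arm carried most of the reads and most of the difference. The 3p entries summed to 803 ± 175 CPM in the RSL3 group and 283 ± 117 CPM in the combined group (SD, n = 3 each), a ratio of 2.84. The 5p entries summed to 239 ± 46.4 and 140 ± 36.4 CPM, a ratio of 1.70. Within each library, where scaling cancels, there were 3.67, 3.47 and 2.98 3p reads for each 5p read in the RSL3 group and 2.01, 1.41 and 2.48 in the combined group. The groups did not overlap in this ratio. Without miR-548o-3p the RSL3 libraries lay at 1.88 to 2.46 and the combined libraries at 1.17 to 1.88, so the groups met at the edge.

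**Figure D1:**
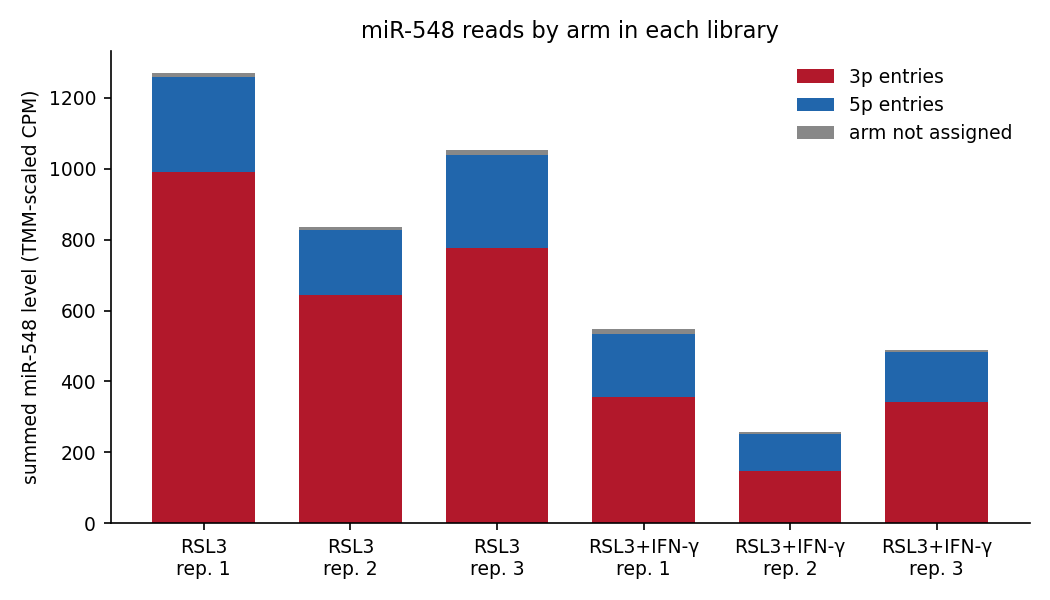
Stacked bars give the summed level of miR-548 entries in each library in TMM-scaled CPM, split into 3p entries, 5p entries and entries whose arm was not assigned. The 3 RSL3 libraries reach 837 to 1270 CPM and the 3 combined libraries 255 to 549 CPM, and the 3p part makes up most of each bar.

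A few members held most of these reads. Only 1 member had a mean above 100 CPM over the 6 libraries, 15 had a mean of at least 10 CPM and 27 had a mean under 1 CPM. The 5 most abundant, miR-548o-3p, miR-548k, miR-548bc, miR-548aq-3p and miR-548u, took 64.6% to 66.3% of family reads in the RSL3 group and 50.6% to 59.9% in the combined group. MiR-548o-3p alone took 22.4% to 29.6% and 9.77% to 17.1%. There were 46 members with a read in all 6 libraries.

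Each miRNA was tested for a difference between groups with edgeR's quasi-likelihood test, fitted over the 758 miRNAs that passed a filter on low counts, with Benjamini-Hochberg adjustment over all of them and calls at an adjusted p under 0.05. The filter kept 32 members, of which 18 reached its level of 1.95 CPM (on library totals) in all 6 libraries, 9 in every RSL3 library but in fewer combined ones, and 3 in every combined library but in fewer RSL3 ones. The 9 include miR-548ah-3p and miR-548p, and entries that pass through 1 group are those most likely to differ, so the counts that follow describe the 32 and not the whole family. Of the 32, 6 fell and 0 rose in the combined group, where 2.24% of all tested miRNAs fell and 2.51% rose. At an unadjusted p under 0.05, 16 members were lower and 0 higher, against 13.1% and 12.8% of all tested miRNAs. DESeq2 called 9 members lower (5.67% of all tested) and limma 7 (3.3%), and both called 0 higher. The median log2 fold change was −0.85 over the 32 members and −0.04 over all tested miRNAs, and 30 members had a negative value.

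All 6 that fell were 3p entries. MiR-548o-3p had 375, 187 and 286 CPM in the RSL3 libraries, against 93.8, 24.9 and 82.2 CPM in the combined ones. The second combined library was the lowest, and every RSL3 library was above every combined one. Its log2 fold change was −2.08 (standard error 0.451, adjusted p = 0.0316).

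MiR-548bc, which carries the seed AAAACUG, had 143, 134 and 108 CPM against 49.3, 22.2 and 47.8 CPM. The groups were well apart, and the log2 fold change was −1.70 (standard error 0.319, adjusted p = 0.0243). MiR-548f-3p, with the same seed and 5 genomic copies, had 25.5, 21.9 and 18.9 CPM against 6.53, 3.08 and 4.52 CPM. It had the most negative log2 fold change of the tested members, −2.24 (standard error 0.348, adjusted p = 0.0111).

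MiR-548ah-3p and miR-548p were nearly the same signal. With RSL3 alone and with the combined treatment miR-548ah-3p had 102, 62 and 89 reads against 25, 8 and 25, and miR-548p had 102, 62 and 90 reads and 22, 8 and 27 reads. They were equal in 3 libraries and differed by at most 3 reads in the others. Their log2 fold changes were −2.14 (standard error 0.464, adjusted p = 0.0316) and −2.19 (standard error 0.450, adjusted p = 0.0315). Given the 19 bases that they share, they cannot be counted as separate observations.

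MiR-548e-3p had the smallest change of the 6. It had 72.8, 70.2 and 59.9 CPM in the RSL3 libraries, against 38.4, 27.3 and 26.6 CPM in the combined ones, with little spread within either group. The log2 fold change was −1.14 (standard error 0.252, adjusted p = 0.0331).

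The remaining 3p entries of at least 10 CPM did not pass the edgeR test, although some passed in other fits. MiR-548aq-3p had 110, 69.8 and 85.8 CPM against 42.5, 13.8 and 40.2 CPM, with no overlap and a log2 fold change of −1.46 (adjusted p = 0.0557). It passed in DESeq2, in limma and in edgeR with the replicate number as a block (adjusted p = 0.0218). MiR-548ar-3p had 50.3, 12.7 and 16.6 CPM against 9.67, 2.73 and 9.53 CPM. Its first RSL3 library lay far above the others, and the log2 fold change was −1.87 (adjusted p = 0.0834). It passed in DESeq2 and in edgeR with the block (adjusted p = 0.0375). MiR-548am-3p had 43.2, 24.4 and 54.6 CPM against 26.3, 3.59 and 16.8 CPM, with overlapping groups and a log2 fold change of −1.40 (adjusted p = 0.150), and it passed with the block (adjusted p = 0.0439 in edgeR) but not in DESeq2 or limma.

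MiR-548u and miR-548a-3p differed least. MiR-548u, whose seed is AAAGACU, had 83.1, 62.9 and 71.1 CPM against 45.0, 28.0 and 70.1 CPM, so the third combined library lay within the RSL3 range. Its log2 fold change was −0.60 (adjusted p = 0.271). MiR-548a-3p had 12.2, 9.39 and 14.5 CPM against 9.91, 7.35 and 12.3 CPM, with overlapping groups and a log2 fold change of −0.29 (adjusted p = 0.625), which turned to 0.064 when libraries were scaled by their totals alone.

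**Figure D2:**
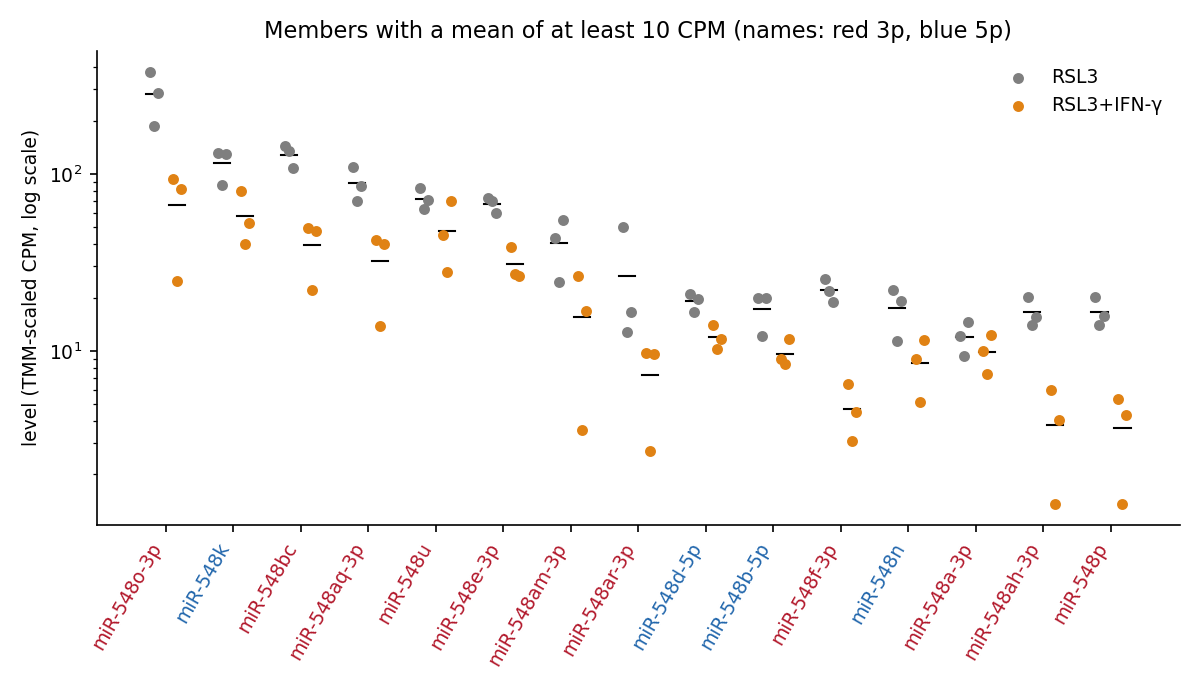
Points give the level of each miR-548 member with a mean of at least 10 CPM in each library (TMM-scaled CPM, log axis), in grey for the RSL3 group and orange for the combined group, with the group mean as a bar. Members are ordered by mean level. In 11 of the 15 the combined libraries all lie below the RSL3 libraries, as they do in 14.8% of all tested miRNAs.

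No 5p entry fell by the edgeR test. MiR-548k, the most abundant 5p entry and the second of the family, had 131, 86.6 and 129 CPM in the RSL3 libraries, against 80, 40.3 and 52.6 CPM in the combined ones. The groups did not overlap, and the log2 fold change was −1.01 (standard error 0.301, adjusted p = 0.0750). It passed in DESeq2 and with the replicate number as a block (adjusted p = 0.0263 in edgeR). MiR-548d-5p had 20.9, 16.6 and 19.6 CPM against 14.0, 10.3 and 11.6 CPM, a log2 fold change of −0.67 (adjusted p = 0.162). MiR-548b-5p had 19.9, 12.1 and 19.8 CPM against 8.94, 8.37 and 11.6 CPM, a log2 fold change of −0.84 (adjusted p = 0.140). The groups did not overlap in either. MiR-548n had 22.1, 11.4 and 19.1 CPM against 8.94, 5.13 and 11.5 CPM, with overlap at the edge and a log2 fold change of −1.04 (adjusted p = 0.127).

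Counted by arm, 6 of 16 tested 3p entries and 0 of 15 tested 5p entries fell, or 5 of 15 3p entries with miR-548ah-3p and miR-548p taken as 1 signal. Of all tested miRNAs, 2.24% fell. At an unadjusted p under 0.05, 10 of the 16 and 6 of the 15 were lower (13.1% of all tested miRNAs). DESeq2 called 8 and 1 lower (5.67% of all tested), and limma 7 and 0 (3.3%). The median log2 fold change was −1.45 for the 3p entries and −0.72 for the 5p entries (−0.78 with equal-count entries collapsed). All 15 values of the 5p entries were negative. Among the 15, miR-548w, miR-548y, miR-548c-5p, miR-548j-5p and miR-548o-5p reached the filter's level in every RSL3 library but in fewer combined ones. So did miR-548ah-3p, miR-548p, miR-548j-3p and miR-548av-3p among the 16 3p entries. Passing the filter in this way favours a negative value. Levels also differed between the arms, since 11 of the 3p and 4 of the 5p entries had a mean of at least 10 CPM. Among those, the medians were −1.70 and −0.92. Across the 32 tested members the Spearman correlation of mean level with log2 fold change was −0.463, a description over entries that share libraries and, in part, reads.

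Members were also grouped by sequence, which 20 of the 32 tested members had. Of these, the 10 that hold AAACUG had a median log2 fold change of −1.78. All 10 were negative, with 5 that fell. Among the 10, miR-548ah-3p, miR-548p, miR-548j-3p and miR-548av-3p reached the filter's level in every RSL3 library but in fewer combined ones. Passing the filter in this way favours a negative value. With miR-548ah-3p and miR-548p taken as 1 signal, represented by miR-548ah-3p, 4 of 9 fell and the median was −1.70. The 7 tested members that hold AAAGUA had a median of −0.84 and 0 fell (4 had an unadjusted p under 0.05, while DESeq2 called 1 and limma 0). Of the 4 tested members with the seed AAAAACU (miR-548ah-3p, miR-548am-3p, miR-548aq-3p and miR-548j-3p) 1 fell, at values between −2.14 and −1.40. Of the 3 with AAAACUG (miR-548bc, miR-548f-3p and miR-548ar-3p) 2 fell. The 5 tested members with the 5p seed AAAGUAA ran from −1.86 to −0.26 and 0 fell (2 had an unadjusted p under 0.05, while DESeq2 and limma called 0). Among these 5, and among the 7 that hold AAAGUA, are miR-548w, miR-548y and miR-548j-5p. They also reached the filter's level in every RSL3 library but in fewer combined ones, and the value of −1.86 is that of miR-548w. The 2 tested 3p entries whose sequence lacks AAACUG were miR-548u and miR-548b-3p. The tested 3p entries miR-548e-3p, miR-548a-3p, miR-548az-3p and miR-548d-3p had no matched sequence and could not be grouped. Their log2 fold changes ran from −1.14 to 0.01.

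MiR-548b-3p was the exception in direction. It had 6, 9 and 18 reads in the RSL3 libraries, against 16, 19 and 39 in the combined libraries, or 1.18, 2.01 and 3.15 CPM against 3.87, 3.25 and 6.30 CPM. It was the only tested member whose combined libraries all lay above the RSL3 libraries, as 15% of all tested miRNAs did. Its log2 fold change was 1.07 (standard error 0.516, adjusted p = 0.223), so it did not pass the test. In the other direction, 16 of the 32 tested members were lower without overlap, where 14.8% of all tested miRNAs were.

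**Figure D3:**
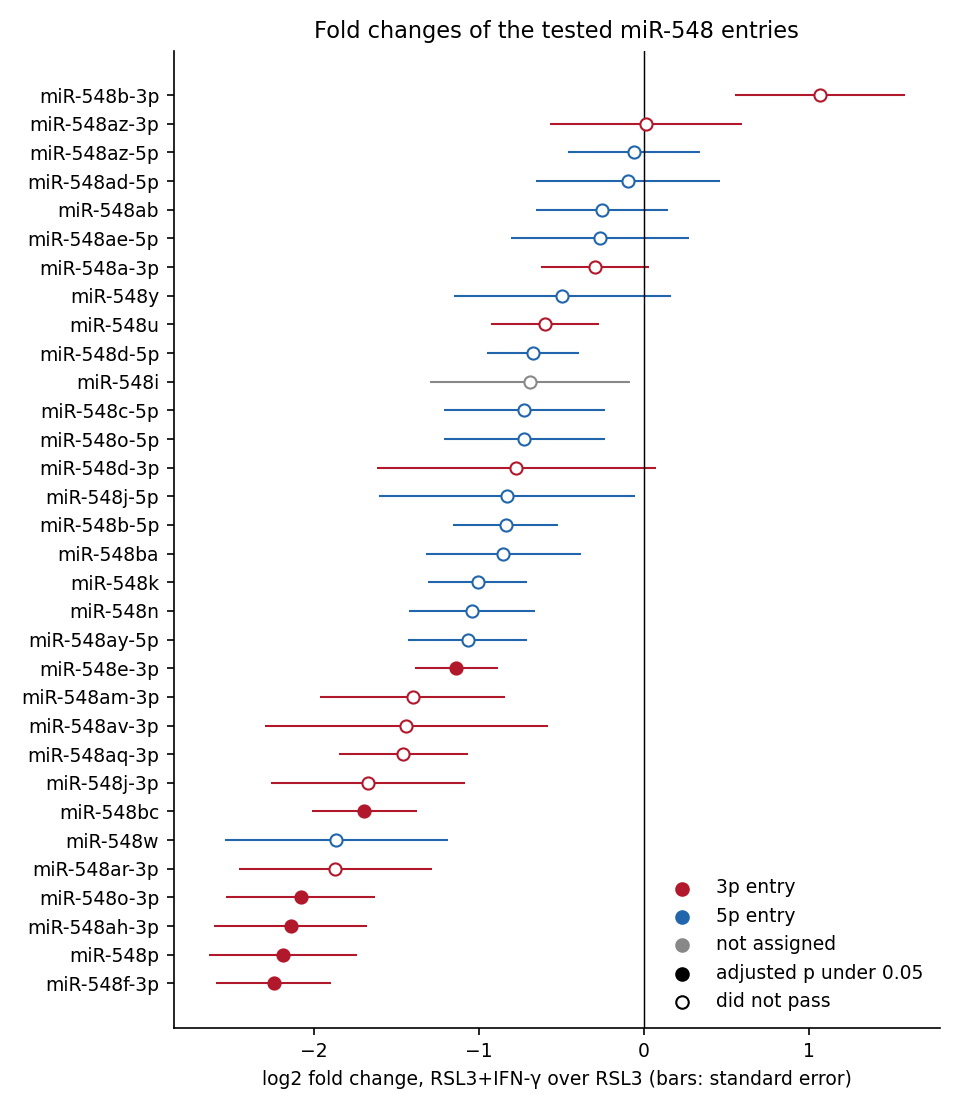
Log2 fold changes of the 32 tested miR-548 entries (combined over RSL3) with standard errors, in red for 3p, blue for 5p and grey for an entry without an assigned arm; filled points passed the edgeR test at an adjusted p under 0.05. The 6 filled points are all 3p entries between −2.24 and −1.14, and 2 of the 32 points lie above 0.

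Both arms of a hairpin could be compared within a library for 3 members of the family. The log2 ratio of 3p to 5p reads, with 0.5 reads added to each, was tested with limma over 181 hairpins, of which 0 (0.0%) passed at an adjusted p under 0.05 and 35 had an unadjusted p under 0.05. No other tool was run on these ratios. For miR-548b the ratio was −3.96, −2.52 and −2.62 in the RSL3 libraries, against −1.18, −1.34 and −0.88 in the combined libraries, so its 5p arm was the more abundant in every library. The difference was 1.90 (standard error 0.458, adjusted p = 0.103 by limma). For miR-548o the ratio was 6.68, 6.19 and 6.82 in the RSL3 libraries, against 5.35, 3.95 and 5.75 in the combined libraries, a difference of −1.55 (standard error 0.507, adjusted p = 0.204 by limma). The groups did not overlap in either hairpin. The share of the 181 hairpins without overlap is not given, so no conclusion is drawn from this. The differences of miR-548b and miR-548o had opposite signs. For miR-548j, whose arms had 145 and 102 reads in all, the ratio was spread widely in the combined group (−0.43, −1.47 and 3.27) and the difference was −0.21 (adjusted p = 0.926 by limma).

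In 3 pairs of entries both had the same count in every library. Taking each pair as 1 signal leaves 69 signals in the family and 31 among those tested. Counts, sums and medians of the family and its arms keep both entries of a pair unless stated otherwise. The 15 tested 5p entries are therefore 14 signals. With equal-count entries collapsed, 6 members fell and the family's median was −0.86. MiR-548c-5p and miR-548o-5p had 18, 11 and 14 reads in the RSL3 libraries, against 9 in each combined library, a log2 fold change of −0.72 (adjusted p = 0.376). The 5p reads of miR-548o in the ratio above are therefore also those of miR-548c-5p. MiR-548aa and miR-548t-3p shared 7, 6 and 16 reads against 3, 5 and 13, and miR-548h-3p and miR-548z shared 10, 7 and 5 reads against 13, 2 and 9. Neither of the latter pairs was tested. Identical letters did not always give equal counts, since miR-548aj-5p, miR-548g-5p and miR-548x-5p have the same mature sequence but had 2, 0 and 1, 0, 0 and 3, and 0, 1 and 1 reads in the RSL3 libraries. In the combined libraries they had 3, 7 and 5, 5, 7 and 5, and 2, 7 and 5 reads.

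The 40 members that were not tested had 2 to 77 reads each over the 6 libraries, and 14 of them had under 10. Their summed level was 32.5 ± 6.37 CPM in the RSL3 group and 30.5 ± 9.59 CPM in the combined group (SD, n = 3 each), a difference within the spread. In 3 of them the combined libraries all lay below the RSL3 libraries, and in 3 they all lay above (miR-548g-5p, miR-548aj-5p and miR-548x-5p). The latter 3 have the same sequence and cannot be counted as separate observations. Reads were few, as for miR-548ak among the former, with 2, 2 and 1 in the RSL3 libraries and 0 in each combined library. No share over other untested miRNAs is given for comparison, so no conclusion is drawn from these counts. An edgeR fit with no filter on low counts called 0 of the 40, and 1 had an unadjusted p under 0.05. No other tool was run without the filter. The 12 tested members not named with a value had means of 1.70 to 7.07 CPM and log2 fold changes of −1.86 to 0.01, and none passed the edgeR test.

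The calls were sensitive to GC content and to single libraries. GC content was taken from the hairpin side that holds the arm and averaged over copies. Where no arm was assigned, as for miR-548i, the whole hairpin was used. A value was found for 31 of the 32 tested members. GC content was 28.6% to 44.6% in the family (median 36.4%), against a median of 51.2% in the other tested miRNAs. Over all 746 tested miRNAs with a value, the Spearman correlation of GC content with log2 fold change was 0.431, a description across miRNAs that share these libraries. Within the family it was −0.225 over 31 members. The 57 other miRNAs at or under the family's median GC content had a median log2 fold change of −0.52, and 3 of them fell. With each library's GC trend removed, edgeR called 1 member lower (miR-548f-3p), where it called 0.402% of all tested miRNAs, and the family's median went from −0.85 to −0.40. The calls lost had log2 fold changes of −1.85 for miR-548o-3p, −1.87 for miR-548ah-3p, −1.70 for miR-548p and −0.70 for miR-548e-3p, and miR-548f-3p was at −1.63. The same correction on GC content of the mature sequence, which only 20 of the 32 tested members had, called miR-548o-3p instead, at −1.81, and put miR-548f-3p at −0.96 and miR-548bc at −0.999. On the hairpin-side measure, without miR-548bc, the median GC content was 36.4% in the 3p entries and 36.2% in the 5p entries. With that trend removed, their median log2 fold changes were −1.07 and −0.29. The part of GC content in the difference between the arms was not tested.

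**Figure D4:**
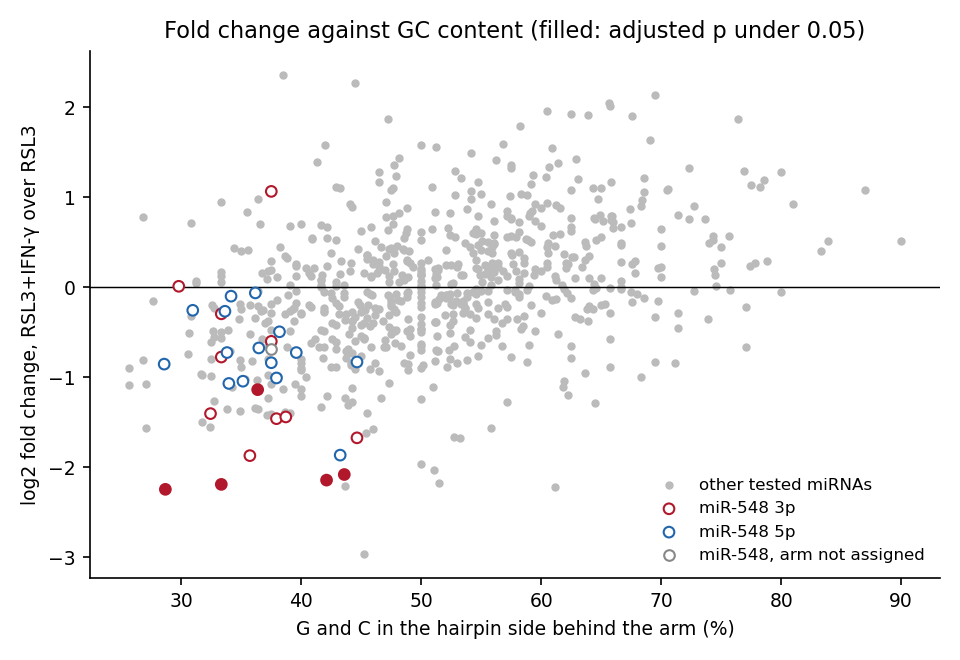
Each point is a tested miRNA with a hairpin match, placed by its percentage of G and C and by its log2 fold change (combined over RSL3). The percentage is of the hairpin side behind its arm, or of the whole hairpin where no arm was assigned. Grey points are other miRNAs and coloured points are miR-548 entries, filled where they passed the edgeR test. The miR-548 entries, without miR-548bc for which no GENCODE 29 hairpin was matched, lie between 28.6% and 44.6%, and the 57 other miRNAs at or under their median GC content have a median log2 fold change of −0.52.

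Leaving out the first RSL3 library left 0 members called lower by edgeR, and 0.0% of all tested miRNAs (9 members had an unadjusted p under 0.05, while DESeq2 called 5 and limma 1). The log2 fold changes of the 6 members were then −2.13 to −1.07, close to the −2.24 to −1.14 with all libraries. Leaving out the second combined library left 2 members lower (0.254% of all tested miRNAs), leaving out the third left 1 (0.384%) and leaving out the first left 10 (6.13%), so calls over the whole table were lost and gained with those of the family. Over the 6 fits without a library DESeq2 called 5 to 12 members lower (1.48% to 7.36% of all tested) and limma 1 to 10 (0.123% to 6.13%). Replicate numbers are shared between groups, but whether they pair the libraries was not settled. With the number as a block 10 members fell (5.67% of all tested miRNAs). They were the 6 above together with miR-548k of the 5p arm and the 3p entries miR-548ar-3p, miR-548am-3p and miR-548aq-3p.

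Other miRNAs from transposons were read beside the family. Of 4 entries from other Made1 hairpins, miR-570-3p, miR-570-5p and miR-579-3p had too few reads to be tested, and miR-579-5p had a log2 fold change of 0.32 (adjusted p = 0.625 by edgeR). Of 12 tested miRNAs from other transposons, 1 fell and 0 rose, with a median of −0.05, where 2.24% of all tested miRNAs fell and 2.51% rose. Of them 4 were lower and 2 higher with an unadjusted p under 0.05, against 13.1% and 12.8% of all tested miRNAs. DESeq2 called 3 of the 12 lower (5.67% of all tested) and 1 higher (52 of all 758). Limma called 1 lower (3.3% of all tested) and 0 higher, and with the replicate block 3 fell (5.67% of all tested). The 1 that fell was miR-652-5p, at −2.02 (adjusted p = 0.0363 by edgeR). MiR-340-5p, at −1.34, and miR-340-3p, at −1.0, did not pass (adjusted p = 0.0750 each by edgeR), nor did miR-151a-5p, at 1.21 (adjusted p = 0.0890 by edgeR).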

How the data were processed

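The authors sequenced small RNA libraries and deposited read counts of mature miRNAs. Bowtie 1.1.1, bcl2fastq, edgeR and the build GRCh38 are named in the submitters' processing notes. The labels name a small RNA library kit, and the study's text another kit. The deposited table holds raw counts, used here, and a normalized signal that the authors scaled per library, not used here, besides the authors' fold changes and p-values, which were not used. The sources used here do not state the miRBase release, the mismatches allowed or how reads with several matches were counted. Members and lists were chosen with earlier results of these data known.

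The test on raw counts was the two-sided quasi-likelihood test of edgeR 4.0.16 in R 4.3.3 (TMM factors, minimum count 10, minimum total 15). Adjusted p-values are by the Benjamini-Hochberg method, and standard errors were taken as the absolute log2 fold change over the root of F. DESeq2 1.42.0 and limma 3.58.1, on log2(CPM + 5), were alternatives. Arm ratios were tested with limma over hairpins whose arms each averaged at least 10 reads. The scripts were tested on simulated counts. Named are members called, those with a mean of at least 10 CPM, equal-count sets of at least 10 reads, hairpins in the arm ratio test and the other transposon lists. Sequences were matched to RefSeq (GRCh38.p14) by name, and hairpins to GENCODE 29, which gave the GC content of each hairpin side. After subtracting group means, libraries with the same number correlated at 0.227, 0.217 and 0.207, each above 0.1. On that basis the number was used as a block in an alternative fit. Libraries with unlike numbers were not compared, so these values cannot show that the numbers pair the libraries. What the numbers stand for is not stated. Alternatives were other scalings and filters, leaving out each library, the replicate block and removal of the GC trend. Precision is limited by 3 libraries per group and by reads, which are not independent molecules.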

Additional observations from a re-analysis of the deposited data

How the results depend on the processing

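All 6 members that fell kept a negative log2 fold change under every alternative in which they were tested, and 0 members rose under any. The number that fell was 12 of 72 with no filter on low counts (3.51% of all tested miRNAs), 10 with the replicate block (5.67%) and 0 to 10 when a library was left out (0.0% to 6.13%). It was 1 with the GC trend of the mature sequence removed (0.589%, or 0.884% with the block). That check does not cover the whole family, because only 20 of 32 tested members, and 5 of the 6 that fell, had a sequence. With the trend of the hairpin side removed, an alternative chosen after seeing the data and fitted without miR-548bc, the number that fell was 1 (0.402%), or 2 with the block (1.07%). The family's median of −0.85 became −1.40 among members of at least 10 CPM, −1.29 to −0.75 with a library left out, and −0.40 with the hairpin-side GC trend removed, with or without the block. Scaling by library totals alone moved the overall median from −0.04 to 0.33 and that of the family to −0.55, with 5 members that fell and 25 of 32 negative. For miR-548a-3p the value turned to 0.064 with library totals and to 0.24 with the hairpin-side GC trend removed, with or without the block. The arm ratio difference of miR-548j ran from −1.62 to 0.76 with a library left out, turning to 0.18, 0.23 and 0.76 without the first RSL3, the first combined and the second combined library. The replicate block changed no other call in the family. Of the 12 tested members not named with a value, 6 changed sign under an alternative. The cause of these shifts was not tested. Depth limits the 40 untested members, and 3 libraries per group limit the rest.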
